A study of Homo sapiens with 24 samples.

Results

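The genes described here encode protein subunits of the mitochondrial ribosome. They are the genes read by probe sets whose single gene symbol is MRPL or MRPS followed by a number and, in some, a letter A, B or C. The rule found 164 probe sets of 74 genes, 47 with MRPL symbols and 27 with MRPS symbols, among 18132 genes that have a probe set naming them alone. The rule itself used symbols and no measured value, but the members were chosen with earlier results of these data known. MRPL23, MRPL53 and MRPS24 share all or part of their probe sets with a second symbol or listing and are outside the rule, as is MRPS36, which the annotation lists as KGD4.

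RNA was measured on 24 Affymetrix PrimeView arrays, which read transcripts with sets of short probes. Both cell lines, SJSA-1 and U2-OS, are established human osteosarcoma lines. Within each line 3 arrays received each of 4 treatments for 6 h, namely the solvent DMSO or THZ2 at 25, 100 or 400 nM. All groups share the same serum-containing medium, and the labels give no genetic alteration or further agent. THZ2 binds covalently to CDK7, a kinase that acts within TFIIH on RNA polymerase II, and inhibits it. The labels do not say whether the 3 arrays of a group came from separate cultures, so p-values measure the spread between these arrays, which may be technical.

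Mitochondria carry their own ribosomes, which translate the handful of respiratory chain proteins encoded by mitochondrial DNA. The ribosomal RNAs come from mitochondrial DNA, whereas every ribosomal protein is encoded in the nucleus, made in the cytosol and imported. Some of these proteins have bacterial counterparts and others are found only in mitochondria. MRPL and MRPS stand for the large and the small subunit, although structures of the human ribosome place MRPS18A and MRPS30 in the large one.

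The promoter windows of 6 members are printed because these genes carry the largest falls, the clearest difference between the lines, a shared promoter or the main rise. Each is a RefSeq window on GRCh38.p14, written 5′ to 3′ on the strand of the gene, from 250 bases before an annotated start to 30 bases counted from it. Capitals mark every match to 4 motifs, searched on both strands. These are GCGCA followed by any base and GCGC for NRF1, CCGGAAG for ETS factors, AANATGGC for YY1 and the E-box CACGTG, and no match shown overlaps another. MRPL46 lies at chr15:88467359-88467638, minus strand. MRPS11 lies at chr15:88467458-88467737, plus strand. MRPL36 lies at chr5:1799808-1800087, minus strand. MRPL49 lies at chr11:65121933-65122212, plus strand. MRPS30 lies at chr5:44808697-44808976, plus strand. MRPL48 lies at chr11:73787624-73787903, plus strand.
MRPL46: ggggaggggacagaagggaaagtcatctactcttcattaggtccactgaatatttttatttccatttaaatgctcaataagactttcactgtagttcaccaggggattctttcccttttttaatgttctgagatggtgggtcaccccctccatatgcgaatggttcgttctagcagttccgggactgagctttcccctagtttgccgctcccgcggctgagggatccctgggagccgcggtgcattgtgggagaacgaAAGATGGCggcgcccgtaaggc
MRPS11: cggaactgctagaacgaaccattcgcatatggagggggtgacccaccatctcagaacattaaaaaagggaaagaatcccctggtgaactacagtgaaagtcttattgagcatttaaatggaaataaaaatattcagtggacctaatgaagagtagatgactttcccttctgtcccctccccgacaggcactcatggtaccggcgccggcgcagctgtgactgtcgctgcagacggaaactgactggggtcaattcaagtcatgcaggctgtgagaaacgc
MRPL36: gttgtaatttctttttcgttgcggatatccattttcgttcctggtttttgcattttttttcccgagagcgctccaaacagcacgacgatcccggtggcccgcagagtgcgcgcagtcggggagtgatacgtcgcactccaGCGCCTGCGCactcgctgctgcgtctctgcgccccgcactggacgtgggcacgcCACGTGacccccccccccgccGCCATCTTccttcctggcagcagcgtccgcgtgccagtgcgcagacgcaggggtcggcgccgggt
MRPL49: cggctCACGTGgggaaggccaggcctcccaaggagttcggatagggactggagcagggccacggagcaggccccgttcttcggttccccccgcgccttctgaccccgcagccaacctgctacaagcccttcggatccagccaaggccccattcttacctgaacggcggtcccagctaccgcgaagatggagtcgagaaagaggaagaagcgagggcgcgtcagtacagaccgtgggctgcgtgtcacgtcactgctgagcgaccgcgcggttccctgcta
MRPS30: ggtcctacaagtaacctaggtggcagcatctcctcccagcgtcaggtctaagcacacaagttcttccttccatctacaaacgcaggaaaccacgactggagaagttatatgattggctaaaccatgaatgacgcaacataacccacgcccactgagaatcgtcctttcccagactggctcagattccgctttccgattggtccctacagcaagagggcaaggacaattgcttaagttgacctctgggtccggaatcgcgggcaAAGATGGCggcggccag
MRPL48: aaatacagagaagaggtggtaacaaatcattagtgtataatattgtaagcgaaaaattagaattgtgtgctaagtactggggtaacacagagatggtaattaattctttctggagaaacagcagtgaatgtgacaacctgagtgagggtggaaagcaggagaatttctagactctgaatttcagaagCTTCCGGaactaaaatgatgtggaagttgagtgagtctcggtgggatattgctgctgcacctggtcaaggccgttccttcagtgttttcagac
The MRPL46 and MRPS30 windows each hold a YY1 match just after the start. The MRPL36 window holds an NRF1, an E-box and a YY1 match before it. The MRPL49 window holds an E-box match at its far end, the MRPL48 window an ETS match, and the MRPS11 window none.

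A gene was represented by its brightest probe set, and its change is the difference of log2(intensity + 16) between groups, given ± its standard error from limma over 24 arrays. "Rose" and "fell" are used for members with a Benjamini-Hochberg adjusted p under 0.05 over 16175 tested genes, and intensities are given ± SD (n = 3 arrays). All 74 members passed the filter on dim genes, and the lowest group mean of any of them was 32.3. From probe sets that hold identical values within but hardly ever between sets of arrays, the 400 nM arrays of U2-OS were taken as normalized apart from the other U2-OS arrays. The 400 nM dose in U2-OS and its normalization set therefore cannot be told apart. The SJSA-1 arrays were taken as 1 set apart from both, so line and set cannot be told apart in any comparison of levels between lines. The SJSA-1 values are rounded on the log2 scale, which can by itself give identical values. Whether the SJSA-1 doses share 1 normalization set thus cannot be told from them. Poly-A spike-in transcripts averaged between 7.04 and 8.40 on the log2 scale on the 400 nM SJSA-1 arrays, against 6.47 to 7.05 with DMSO. In U2-OS at 100 nM they averaged 6.13 to 6.17, against 5.82 to 5.83 with DMSO. Centring on them moved the median change of all genes to -0.34 at 100 nM and -0.74 at 400 nM in SJSA-1, against 0.06 and 0.10 on the deposited scale. In U2-OS it moved that median to -0.27 at 100 nM and -0.13 at 400 nM, against 0.06 and 0.15. Of 10 osteoblast lineage markers, VIM and SPARC, which mark mesenchymal and bone-forming cells, were bright in all groups. IBSP was under the filter threshold of 12.73 in every group. COL1A2 in U2-OS was under it with DMSO and at 25 and 100 nM, and at 16.2 at 400 nM. SPP1 and SP7 in SJSA-1 were under it with DMSO. RUNX2, the osteoblast lineage factor, fell at 100 and 400 nM in both lines. Of the 9 tested markers, 4 rose and 1 fell in SJSA-1 at each of these doses. In U2-OS 0 rose and 1 fell at 100 nM, and 5 rose and 2 fell at 400 nM. Summed over 9 nervous tissue markers, intensities in SJSA-1 were 162 to 174 with DMSO, 198 to 218 at 100 nM and 218 to 242 at 400 nM, and in U2-OS 330 to 338, 358 to 408 and 391 to 427. The 6 blood markers summed in SJSA-1 to 98.5 to 109 with DMSO, 115 to 121 at 100 nM and 133 to 151 at 400 nM, and in U2-OS to 139 to 148, 159 to 173 and 161 to 186. The 6 epithelial markers summed in SJSA-1 to 131 to 166 with DMSO, 205 to 226 at 100 nM and 228 to 255 at 400 nM, and in U2-OS to 271 to 290, 322 to 366 and 463 to 465. All these sums of nervous tissue, blood and epithelial markers were above those with DMSO at both doses. The part of these markers in the changes below was not tested. In bulk RNA, fewer cells of a type and less RNA per cell cannot be told apart.

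At 100 nM the mitochondrial ribosomal protein genes fell far more often than they rose, in both lines. In SJSA-1 37 of 74 members fell, where 25.1% of all tested genes did, and 4 rose, where 24.4% of all genes did. In U2-OS 34 members fell, against 22.2% of all genes, and 2 rose, against 19.8%. The median member changed by -0.23 in SJSA-1 and -0.18 in U2-OS, while the median of all genes was 0.06 in each line. Most falls were small. At least 2-fold falls numbered 6 members in SJSA-1, against 6.2% of all genes, and 2 in U2-OS, against 4.08%, and 0 rose 2-fold, against 0.439% of all genes in SJSA-1 and 0.328% in U2-OS. Of the 37 members that fell in SJSA-1, 35 had all 3 THZ2 arrays below all DMSO arrays, and in U2-OS all 34 did. These members were already picked by the limma test on the same arrays, so the count only describes them. No such share was counted over all called genes. With arrays centred on the spike-ins, 40 members fell and 0 rose in SJSA-1, where 26.5% of all genes fell and 0.457% rose. In U2-OS 32 fell and 0 rose on that scale, where 19.6% of all genes fell and 0.396% rose.

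**Figure D1:**
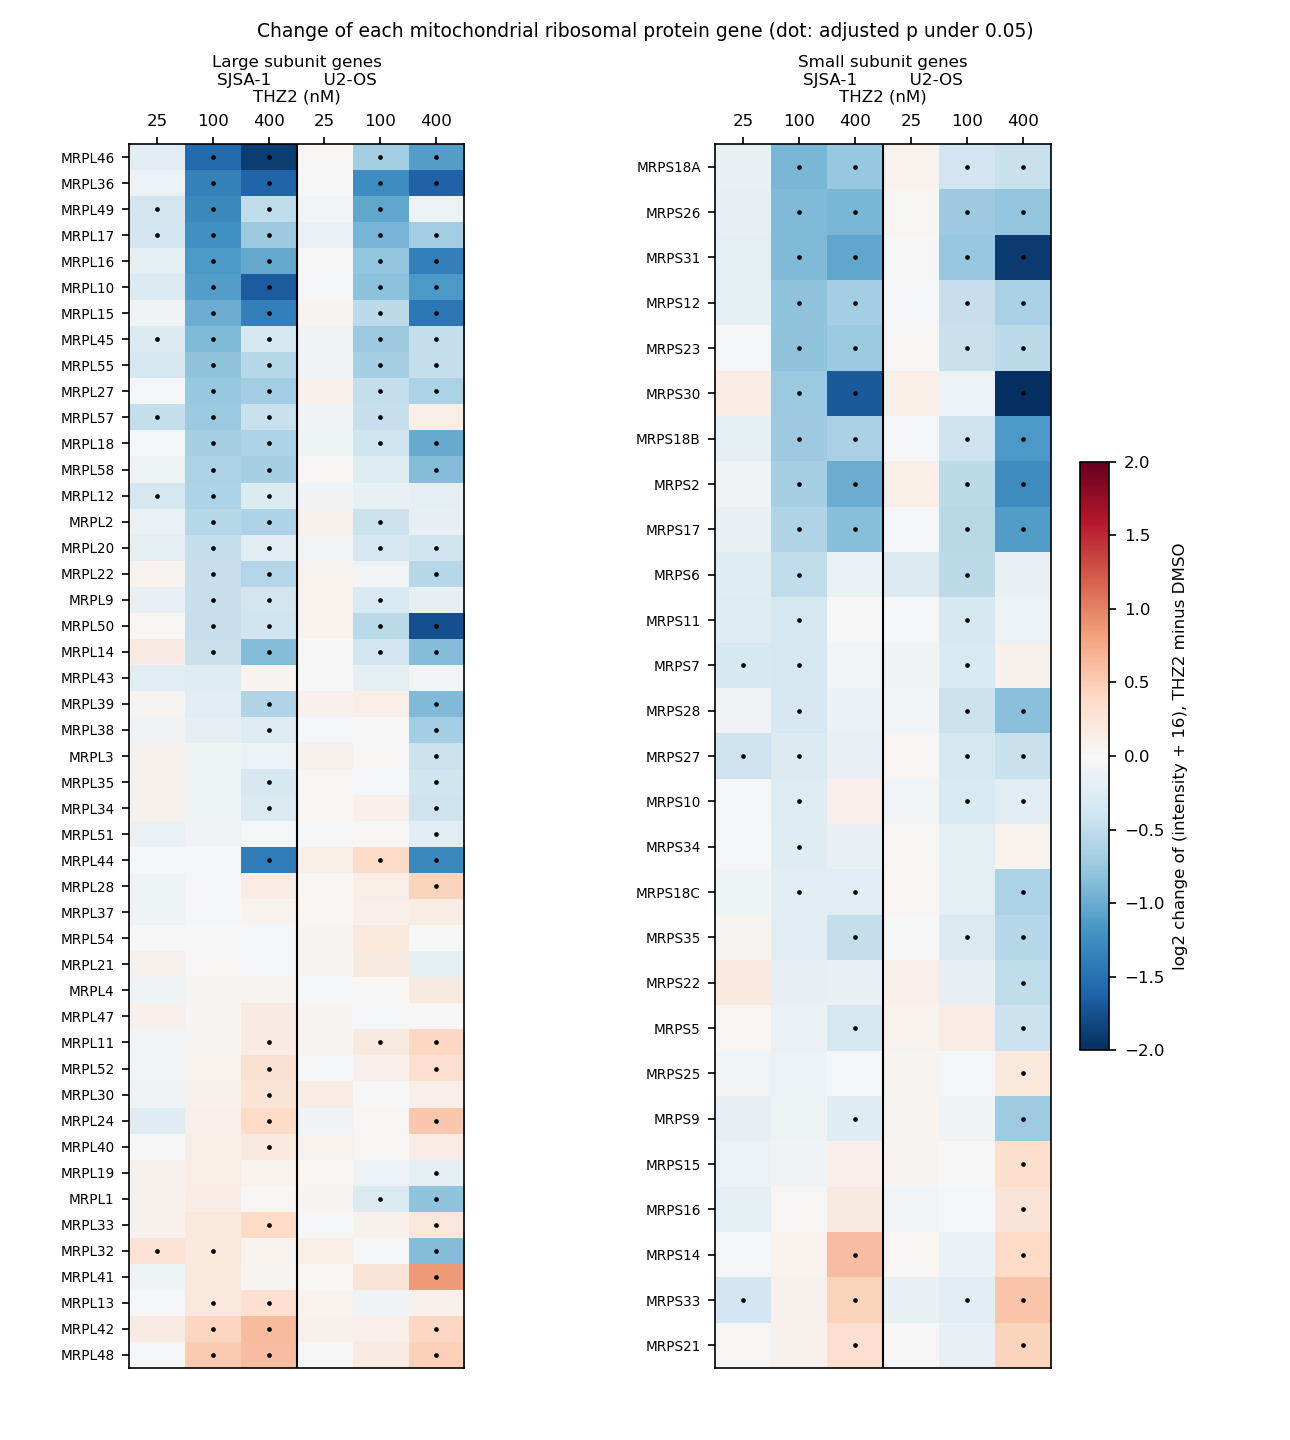
Log2 change of intensity + 16 (colour, THZ2 minus DMSO) of each of the 47 MRPL genes (left) and 27 MRPS genes (right) at 25, 100 and 400 nM in SJSA-1 and U2-OS, in the order of the change in SJSA-1 at 100 nM; dots mark adjusted p under 0.05. In the 100 and 400 nM columns 53 and 49 of the 74 members are below 0 in SJSA-1, and 54 and 52 in U2-OS. The red cells reach at most 0.85 (MRPL41 in U2-OS at 400 nM), on the deposited scale.

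The deepest falls in SJSA-1 at 100 nM were in large-subunit genes. MRPL46, a protein found only in mitochondrial ribosomes, had intensities of 242, 324 and 276 at 100 nM, against 781, 849 and 936 with DMSO. It fell by 1.56 ± 0.11 on the log2 scale (limma, adjusted p = 1.48e-12). All 3 treated arrays lay far under every DMSO array. In U2-OS, MRPL46 had 309, 320.2 and 307 at 100 nM, against 521, 512 and 503 with DMSO, a change of -0.69 ± 0.11. The arrays were again apart, but the fall was shallower: the effect in SJSA-1 minus that in U2-OS was -0.87 ± 0.15 (limma, adjusted p = 0.000146).

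MRPL36, the counterpart of bacterial L36, fell in both lines. Its intensities were 1520.2, 1771 and 1652 at 100 nM in SJSA-1, against 4096, 4096 and 4420.5 with DMSO, a change of -1.34 ± 0.078. In U2-OS they were 459.5, 466 and 441, against 1083, 1079 and 1149.6, a change of -1.25 ± 0.078, the largest fall of a member in that line at this dose. No THZ2 array overlapped the DMSO arrays, and the difference between the lines, -0.10 ± 0.11, did not pass the threshold (limma, adjusted p = 0.67).

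MRPL49, another mitochondria-specific subunit, had 488, 505 and 523 at 100 nM in SJSA-1, against 1038, 1361 and 1409 with DMSO, and fell by 1.29 ± 0.1 on the log2 scale. In U2-OS it had 284, 315 and 315, against 645, 662 and 622, a change of -1.04 ± 0.1. The treated arrays of both lines stood together, well below every DMSO array. MRPL16, which lies near the centre where peptide bonds are made, averaged 256 ± 24.4 at 100 nM and 585 ± 43.6 with DMSO in SJSA-1, and changed by -1.14 ± 0.086 there and by -0.79 ± 0.086 in U2-OS. MRPL17, a counterpart of bacterial L17, changed by -1.22 ± 0.11 in SJSA-1 and -0.93 ± 0.11 in U2-OS. Its second probe set, with a mean intensity of 35.9 over all arrays against 680 for the first, gave smaller falls, -0.18 and -0.49.

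The stalk of the large subunit, which recruits translation factors, is built on MRPL10 and carries MRPL12. MRPL10 averaged 192 ± 31.9 at 100 nM and 430.2 ± 57.1 with DMSO in SJSA-1, and fell there by 1.11 ± 0.10 and in U2-OS by 0.82 ± 0.10. MRPL12, which has also been reported to bind the mitochondrial RNA polymerase, changed by -0.61 ± 0.098 in SJSA-1 and was at -0.14 ± 0.098 in U2-OS, not called (limma, adjusted p = 0.231). The difference between the lines was -0.47 ± 0.14 (limma, adjusted p = 0.0176). It was -0.40, -0.41 and -0.43 and no longer called without SJSA-1 DMSO replicate 2, SJSA-1 DMSO replicate 3 or U2-OS 100 nM replicate 2. MRPL11, at the base of the factor-binding site, rose by 0.18 ± 0.069 in U2-OS, a rise that turned to -0.15 with spike-in centring, and was at 0.06 ± 0.069 in SJSA-1. The rise in U2-OS was between 0.14 and 0.17 and not called without replicate 2 or 3 of either DMSO or 100 nM.

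Near the exit of the peptide tunnel, MRPL45 is known to hold the ribosome at the inner membrane and MRPL44 carries an RNase III-like fold. MRPL45 averaged 183 ± 12.2 at 100 nM and 355 ± 6.47 with DMSO in SJSA-1, and fell by 0.90 ± 0.079 there and by 0.73 ± 0.079 in U2-OS. Of its 3 probe sets, 2 held identical values and the third also fell. MRPL44 behaved otherwise. It rose by 0.38 ± 0.13 in U2-OS, which became 0.06 and not called with spike-in centring and 0.37 and not called without U2-OS DMSO replicate 1, and was at -0.05 ± 0.13 in SJSA-1. MRPL58, a peptidyl-tRNA hydrolase built into the ribosome, changed by -0.63 ± 0.11 in SJSA-1 and by -0.24 ± 0.11 in U2-OS, where it was not called (limma, adjusted p = 0.0888).

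Among MRPS genes 17 of 27 fell and 0 rose in SJSA-1 at 100 nM, and 16 fell and 0 rose in U2-OS. The MRPL genes split 20 fallen and 4 risen in SJSA-1, and 18 and 2 in U2-OS, of 47. As shares, 63.0% of MRPS and 42.6% of MRPL genes fell in SJSA-1, and 59.3% and 38.3% in U2-OS. MRPS18A, placed in the large subunit, had 229, 261 and 237 at 100 nM in SJSA-1, against 388, 491 and 538 with DMSO, and changed by -0.91 ± 0.10. Its arrays did not overlap, but its second probe set was at -0.05 there and not called. MRPS18B fell by 0.72 ± 0.094 and 0.41 ± 0.094 in SJSA-1 and U2-OS. MRPS18C, the third relative of bacterial S18, fell by 0.23 ± 0.084 in SJSA-1 and was at -0.18 ± 0.084 in U2-OS. The fall in SJSA-1 was -0.22, -0.20 and -0.16 and not called without DMSO replicate 1, DMSO replicate 3 or 100 nM replicate 1, and -0.04 with the mean of its probe sets.

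The other small-subunit genes named here did not all move alike. MRPS12, the decoding protein S12, changed by -0.81 ± 0.12 in SJSA-1 and -0.46 ± 0.12 in U2-OS. MRPS2 changed by -0.67 ± 0.11 and -0.53 ± 0.11, and MRPS7 by -0.34 ± 0.074 and -0.31 ± 0.074, in the same lines. MRPS31, found only in mitochondria, averaged 110.3 ± 10.8 at 100 nM and 215 ± 4.48 with DMSO in SJSA-1 and changed by -0.88 ± 0.095, and by -0.76 ± 0.095 in U2-OS. MRPS34 fell in SJSA-1 by 0.24 ± 0.089, and was at -0.18 ± 0.089 in U2-OS. Without SJSA-1 DMSO replicate 2 or 3 or 100 nM replicate 1 or 3 its change lay between -0.23 and -0.18 and was not called. MRPS16 and MRPS22, both known as genes of inherited respiratory chain disease, were not called in either line, although MRPS22 passed at -0.22 and -0.25 in SJSA-1 without DMSO replicate 2 or 100 nM replicate 3. MRPS16 was at 0.03 ± 0.082 and -0.02 ± 0.082, and MRPS22 at -0.16 ± 0.079 and -0.16 ± 0.079, in SJSA-1 and U2-OS.

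MRPS30, a large-subunit protein despite its symbol, separated the lines. In SJSA-1 it had 519, 639 and 564 at 100 nM, against 936, 1017 and 949 with DMSO, and fell by 0.74 ± 0.088 (limma, adjusted p = 4.89e-08). In U2-OS it had 771, 788 and 780.0, against 831, 864 and 838, a change of -0.11 ± 0.088 that was not called (limma, adjusted p = 0.299). The 3 U2-OS arrays at 100 nM lay just under their DMSO arrays, whereas those of SJSA-1 lay well under theirs. The difference between the lines was -0.63 ± 0.12 (limma, adjusted p = 0.000512).

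The rises at 100 nM in SJSA-1 were MRPL48, MRPL42, MRPL13 and MRPL32, and on spike-in centring MRPL48 was at 0.12, MRPL42 at 0.03, MRPL13 at -0.18 and MRPL32 at -0.19, with none called. MRPL48, a mitochondria-specific protein of the large subunit, had 488, 484 and 481 at 100 nM, against 345, 315 and 340.1 with DMSO, a change of 0.52 ± 0.073. All 3 treated arrays were above the DMSO arrays, but a second probe set of MRPL48 gave 0.14 and was not called. MRPL42, also mitochondria-specific, changed by 0.43 ± 0.11, with 3 probe sets between 0.43 and 0.63. MRPL13 changed by 0.22 ± 0.064 and MRPL32, whose maturation needs an inner membrane protease, by 0.21 ± 0.083. MRPL13 was at 0.15 and not called without DMSO replicate 2, and MRPL32 lay between 0.15 and 0.23 and was not called without DMSO replicate 1 or 2 or 100 nM replicate 1 or 3. In U2-OS these 4 genes were at 0.16, 0.10, -0.07 and -0.02, none of them called.

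**Figure D2:**
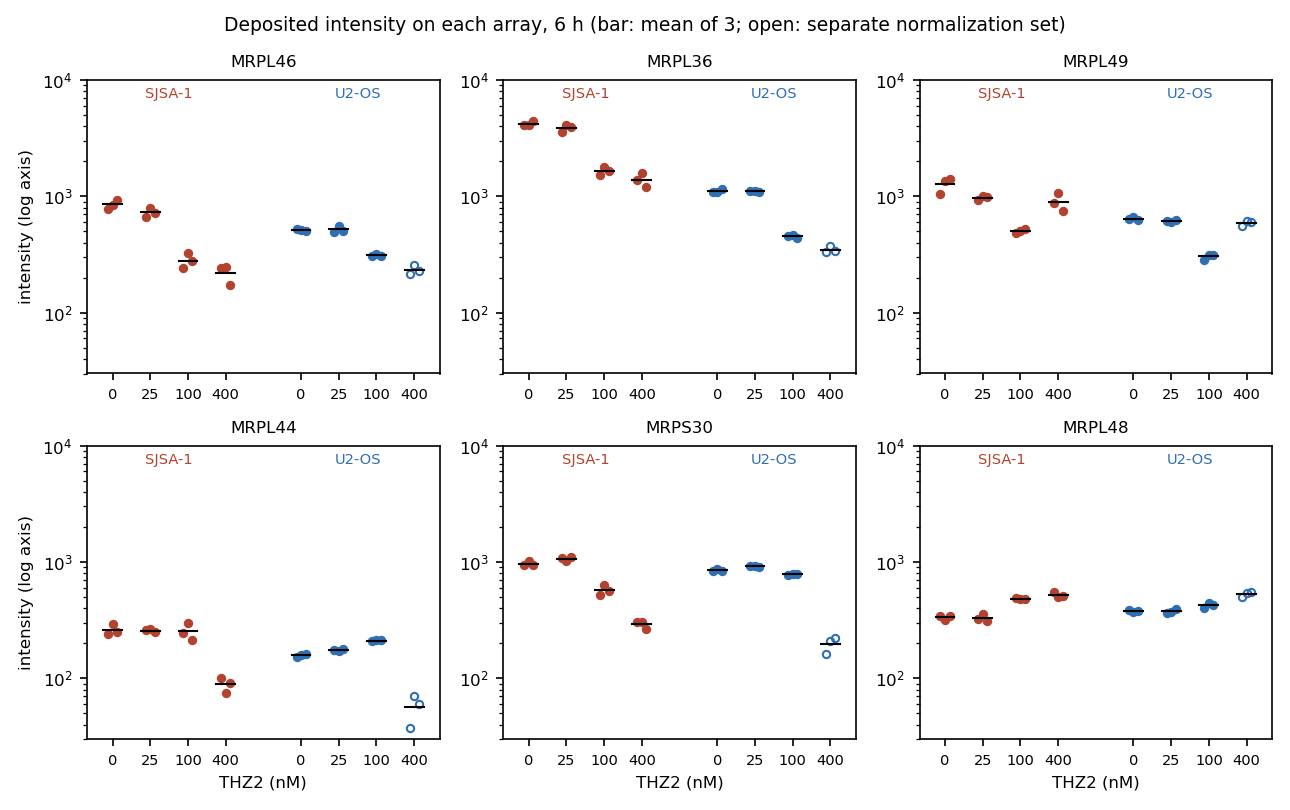
Deposited intensity (log axis) on each of the 24 arrays for 6 members, by THZ2 dose in nM (0 is DMSO), SJSA-1 left and U2-OS right; bars are means of 3 arrays and open points are the U2-OS arrays taken as normalized apart. MRPL46 and MRPL36 step down at 100 nM, MRPL49 is low at 100 nM and near its DMSO level at 400 nM in U2-OS, MRPL44 and MRPS30 are lowest at 400 nM, and MRPL48 is higher at 100 and 400 nM in SJSA-1 on this scale.

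The lists of fallen members overlapped between the lines. Of the 37 that fell in SJSA-1 and the 34 that fell in U2-OS, 31 were shared, 83.8% of the SJSA-1 list and 91.2% of the U2-OS list. Over all tested genes the shared falls were 67.1% of the SJSA-1 list and 75.6% of the U2-OS list. The other 6 in SJSA-1 were MRPL12, MRPL22, MRPL58, MRPS18C, MRPS30 and MRPS34, and the other 3 in U2-OS were MRPL1, MRPS33 and MRPS35. No member was called in opposite directions at 25, 100 or 400 nM. Across the 74 members, Spearman's rho between the lines' changes was 0.83 at 100 nM, against 0.71 across all 16175 genes. Genes are not independent replicates, and the changes of a line share its DMSO arrays, so this is a description.

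A test of the difference between the lines passed at 100 nM for 11 members. It was lower in SJSA-1 for 8, where 9.74% of all genes were, and higher for 3, where 7.15% were. Besides MRPL46, MRPS30 and MRPL12, the lower ones included MRPS18A, at -0.52 ± 0.15, and MRPL15, at -0.47 ± 0.11. MRPS18A was at -0.42 and not called without SJSA-1 DMSO replicate 3, and at -0.29 with the mean of its probe sets. For MRPL15 the mean of its probe sets gave -0.07, since its second probe set moved the other way. That second probe set is dim, with a mean intensity of 24.6 over all arrays, against 1035 for the brightest. The 3 higher ones were MRPL1 (0.45 ± 0.14), MRPL48 (0.36 ± 0.10) and MRPL13 (0.29 ± 0.09), and with spike-in centring 0 members passed in either direction, MRPL46 and MRPS30 included. Centring shifts the difference of every gene by the same amount. The median member difference was -0.17 after it, against -0.10 on the deposited scale. The calls of MRPL46 and MRPS30 were thus lost without their differences coming nearer to no difference. Without SJSA-1 DMSO replicate 2 or 100 nM replicate 3 MRPL1 was at 0.42 and 0.34 and MRPL13 at 0.22 and 0.24, none called, and MRPL13 was at 0.28 without U2-OS DMSO replicate 2 or 3. The mean of its probe sets put MRPL48 at 0.14, not called. MRPL1, the counterpart of the bacterial protein that forms the other stalk, fell by 0.29 ± 0.097 in U2-OS and was at 0.16 ± 0.097 in SJSA-1.

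**Figure D3:**
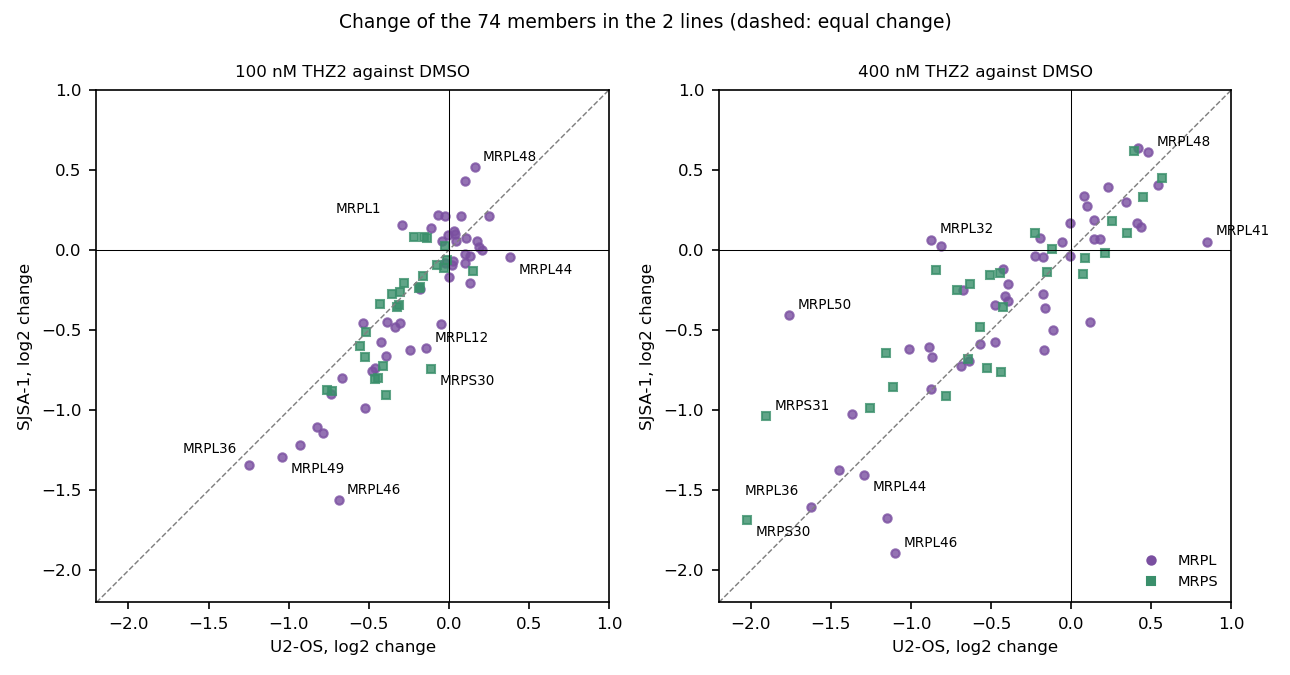
Log2 change of intensity + 16 against DMSO in SJSA-1 (vertical) and U2-OS (horizontal) for the 74 members at 100 nM (left) and 400 nM (right); circles are MRPL genes, squares MRPS genes, and the dashed line is equal change. At 100 nM MRPL46 lies furthest below the line, at -1.56 in SJSA-1 and -0.69 in U2-OS, and at 400 nM MRPL50 lies furthest above it.

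At 25 nM little moved. In U2-OS 0 members passed the limma test in either direction, where 0.0247% of all genes rose and 0.0556% fell, and 2 members had an unadjusted p under 0.05. In SJSA-1 8 members fell, against 6.28% of all genes, and 1 rose, against 1.97%. The 8 were MRPL12, MRPL17, MRPL45, MRPL49, MRPL57, MRPS7, MRPS27 and MRPS33, and all but MRPS33 fell at 100 nM as well. MRPL57, a short mitochondria-specific protein, had 976, 904 and 898 at 25 nM, against 1121, 1370.0 and 1399 with DMSO, and changed by -0.47 ± 0.083. MRPL17 changed by -0.39 ± 0.11, MRPL49 by -0.37 ± 0.1 and MRPS27, a protein with pentatricopeptide repeats, by -0.42 ± 0.096. MRPL32 rose by 0.29 ± 0.083 and was at 0.22 without a call after spike-in centring. Leaving out 1 array moved the number of falls at 25 nM between 3 and 14: it was 14 without DMSO replicate 1, 3 without DMSO replicate 2, 4 without DMSO replicate 3, and 5 and 4 without replicates 1 and 3 at 25 nM. Without DMSO replicate 3, MRPL17 was at -0.30 and MRPL49 at -0.29, without a call. After spike-in centring 0 members fell and 0 rose in SJSA-1 at 25 nM. When only the arrays compared were fitted, 1 fell and 0 rose. No member passed the test of the difference between the lines at 25 nM, where 0.915% of all genes were lower in SJSA-1 and 0.179% higher.

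Between 25 and 100 nM, 36 members fell in SJSA-1, where 23.1% of all genes did, and 6 rose, where 18.6% did. In U2-OS 37 fell, against 23.3% of all genes, and 0 rose, against 24.8%. From 25 to 100 nM MRPL46 changed by -1.33 ± 0.11 in SJSA-1, and MRPL36 by -1.22 ± 0.078 in SJSA-1 and -1.25 ± 0.078 in U2-OS. The 6 risers in SJSA-1 included MRPL48 at 0.54 ± 0.073 and MRPS33 at 0.47 ± 0.083, with 0.21 and 0.14 and no call after spike-in centring. MRPL41 at 0.30 ± 0.10 and MRPL13 at 0.24 ± 0.064 turned to -0.03 and -0.09 there, and MRPL41 was at 0.26 and 0.27 without a call when 25 nM replicate 3 or 100 nM replicate 2 was left out.

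At 400 nM the members spread out in both directions on the deposited scale. In SJSA-1 38 fell, against 24.9% of all genes, and 12 rose, against 41.4%. In U2-OS 42 fell, against 25% of all genes, and 14 rose, against 48.4%. The median member changed by -0.21 in SJSA-1 and -0.40 in U2-OS, and the median of all genes was 0.10 and 0.15. Falls of at least 2-fold numbered 8 in SJSA-1, against 8.51% of all genes, and 13 in U2-OS, against 6.92%. After spike-in centring 68 fell and 0 rose in SJSA-1, where 87.6% of all genes fell, and 39 fell and 0 rose in U2-OS, where 20% of all genes fell. Both lines shared 33 fallen members, 86.8% of the SJSA-1 list and 78.6% of the U2-OS list, against 68.7% of either list over all genes. They shared 9 risen ones, 75% of the SJSA-1 and 64.3% of the U2-OS list, against 69.1% and 59.1% over all genes: MRPL11, MRPL24, MRPL33, MRPL42, MRPL48, MRPL52, MRPS14, MRPS21 and MRPS33.

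Counting 100 and 400 nM in both lines, 21 members fell in all 4 comparisons, 28.4% of the members, against 11.5% of all tested genes. They were MRPL10, MRPL14, MRPL15, MRPL16, MRPL17, MRPL18, MRPL20, MRPL27, MRPL36, MRPL45, MRPL46, MRPL50, MRPL55, MRPS2, MRPS12, MRPS17, MRPS18A, MRPS18B, MRPS23, MRPS26 and MRPS31. At the other end, 6 members, 8.11%, passed in no dose comparison of either line, against 5.74% of all genes, namely MRPL4, MRPL21, MRPL37, MRPL43, MRPL47 and MRPL54. The remaining members passed in some of the comparisons.

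MRPL46 and MRPL10 had the lowest changes at 400 nM in SJSA-1 together with MRPS30. The intensities of MRPL46 were 242, 247 and 172 at 400 nM, against 781, 849 and 936 with DMSO, and it changed by -1.89 ± 0.11. MRPL10 averaged 124 ± 11.6 and 430.2 ± 57.1 and changed by -1.67 ± 0.10. MRPS30 had 302, 304 and 265 at 400 nM in SJSA-1 and changed by -1.68 ± 0.088, and 162, 208 and 221 in U2-OS, where it changed by -2.02 ± 0.088. Every 400 nM array of MRPS30 was far below every DMSO array of its line. MRPS31 in U2-OS had 27.9, 35.3 and 33.6 at 400 nM, against 161, 164 and 169 with DMSO, a change of -1.91 ± 0.095.

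MRPL44 had no fall at 100 nM in either line and a deep one at 400 nM in both. In SJSA-1 its intensities were 240.5, 292 and 251 with DMSO, 258, 265 and 249 at 25 nM, 247, 300.2 and 214 at 100 nM and 101, 75.1 and 91.1 at 400 nM. In U2-OS they were 154, 158 and 161 with DMSO, 175, 171 and 179.5 at 25 nM, 207, 212 and 212 at 100 nM and 37.5, 71.0 and 60.3 at 400 nM. Only the 400 nM arrays were low, and they overlapped no other array of their line. The change at 400 nM was -1.40 ± 0.13 in SJSA-1 and -1.29 ± 0.13 in U2-OS, and the step between 100 and 400 nM in SJSA-1 was -1.36 ± 0.13 (limma, adjusted p = 1.45e-09). MRPL44 is read by 1 probe set.

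MRPL49 showed the opposite course. In SJSA-1 its intensities were 1038, 1361 and 1409 with DMSO, 923, 1009.9 and 982 at 25 nM, 488, 505 and 523 at 100 nM and 873, 1060.1 and 744 at 400 nM. In U2-OS they were 645, 662 and 622 with DMSO, 611, 607 and 627 at 25 nM, 284, 315 and 315 at 100 nM and 561, 612 and 606 at 400 nM. The lowest arrays were those at 100 nM in both lines. Its change at 400 nM was -0.50 ± 0.1 in SJSA-1 and -0.11 ± 0.1 in U2-OS, not called in the second, and in SJSA-1 it rose by 0.79 ± 0.1 between 100 and 400 nM (limma, adjusted p = 4.11e-07).

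Within SJSA-1 the step between 100 and 400 nM split the members, with 16 higher at 400 nM, where 14.9% of all genes were, and 12 lower, where 11.7% were. Of the 37 that had fallen at 100 nM, 11 rose in this step, among them MRPL49, MRPL45 (0.55 ± 0.079), MRPL17 (0.49 ± 0.11), MRPS6 (0.37 ± 0.089), MRPL12 and MRPS7. Another 8 fell again, namely MRPL10, MRPL14, MRPL15, MRPL36, MRPL46, MRPS2, MRPS17 and MRPS30. A further 4, MRPL35, MRPL39, MRPL44 and MRPS35, were not called at 100 nM and fell in the step. The same 100 nM arrays entered the choice of the 37 and the start of this step, which favours rises among the 37. These splits are therefore descriptions, and no share over all genes was counted for them. With spike-in centring 0 members rose in this step, and MRPS6 turned to -0.07. Without the third 400 nM array 27 members rose and 7 fell, without the second 400 nM array 8 rose, without the first 100 nM array 10 rose, and without the second 100 nM array 6 fell.

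The rises at 400 nM were modest and depend on the scale. MRPL42 averaged 866 ± 40.3 at 400 nM and 559.6 ± 122 with DMSO in SJSA-1, a change of 0.64 ± 0.11, which was -0.21 after spike-in centring. MRPL48 changed by 0.61 ± 0.073 in SJSA-1 and 0.48 ± 0.073 in U2-OS, and by -0.23 and 0.20 after that centring. MRPS14, the counterpart of bacterial S14, changed by 0.62 ± 0.11 and MRPS33 by 0.45 ± 0.083 in SJSA-1, and by -0.23 and -0.39 after it. MRPL41, reported to bind BCL2, had 467, 522 and 546 at 400 nM in U2-OS, against 289, 269 and 273 with DMSO, a change of 0.85 ± 0.10, the largest rise of a member in any dose comparison, and 0.57 without a call after spike-in centring. In SJSA-1 MRPL41 was at 0.05 ± 0.10, with 541, 662 and 474 at 400 nM, against 452, 568 and 592 with DMSO, and the arrays overlapped.

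The difference between the lines at 400 nM passed for 25 members, lower in SJSA-1 for 8, where 31.4% of all genes were, and higher for 17, where 14.5% were. The U2-OS side of this difference carries its normalization set. MRPL50, a mitochondria-specific protein, had 94.3, 111 and 80.5 at 400 nM and 137, 107 and 151 with DMSO in SJSA-1, where it changed by -0.40 ± 0.11. In U2-OS it had 151, 174 and 138 and 515, 586 and 579.6 and changed by -1.76 ± 0.11. The difference was 1.36 ± 0.15 (limma, adjusted p = 6.25e-08). MRPL32 differed by 0.94 ± 0.12, MRPS31 by 0.87 ± 0.13 and MRPL1 by 0.83 ± 0.14. All 3 fell in U2-OS, whereas in SJSA-1 MRPS31 fell by 1.04 and MRPL32 and MRPL1 were at 0.06 and 0.02, not called. MRPL41 differed by -0.80 ± 0.15 and MRPL46 by -0.80 ± 0.15. With spike-in centring 1 member was higher and 13 were lower in SJSA-1, so the balance of directions at this dose changed with the scaling.

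Several genes have more than 1 probe set, and these did not always move together. Of 158 tested member probe sets, 61 fell and 17 rose in SJSA-1 at 100 nM, where 22.5% of 37944 tested probe sets fell and 25.2% rose. In U2-OS 57 fell and 10 rose, against 18.9% and 17.6% of all probe sets. At 400 nM 57 fell and 39 rose in SJSA-1, against 23.4% and 36% of all, and 69 fell and 38 rose in U2-OS, against 22.7% and 48.4%. Among called members with several probe sets, 2 of 23 in SJSA-1 and 1 of 20 in U2-OS at 100 nM had another probe set called in the opposite direction. At 400 nM these numbers were 3 of 29 and 8 of 34. MRPL20 fell by 0.48 ± 0.087 in SJSA-1 at 100 nM, while another of its probe sets rose by 0.36. MRPL15 fell by 0.99 ± 0.081, while its second probe set rose by 0.35. These other probe sets are far dimmer. Over all arrays those of MRPL20 averaged 108 and 18.3, against 1686 for the brightest, and that of MRPL15 24.6, against 1035. MRPL57 fell by 0.45 ± 0.083 at 400 nM in SJSA-1, while its other 3 probe sets rose by 0.49 to 0.51. MRPL46, MRPL36, MRPL49, MRPL16, MRPL10, MRPL44, MRPL50, MRPS30 and MRPS31 are each read by 1 probe set, so their values have no second reading.

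Genes that act on the same ribosome were listed for comparison. The counts of this and the following lists stand against these shares of all tested genes. At 100 nM 25.1% of all genes fell and 24.4% rose in SJSA-1, and 22.2% and 19.8% in U2-OS. At 400 nM 24.9% fell and 41.4% rose in SJSA-1, and 25% and 48.4% in U2-OS. After spike-in centring very few of all genes rose at 100 nM, as given above. Of 25 genes for assembly of the mitochondrial ribosome and modification of its RNA, 15 fell and 1 rose in SJSA-1 at 100 nM, and 11 fell and 1 rose in U2-OS. Their median changes were -0.37 and -0.13. After spike-in centring 0 of them rose at 100 or 400 nM in either line. MRM3, an rRNA 2′-O-methyltransferase, changed by -1.65 ± 0.11 in SJSA-1, MALSU1, an anti-association factor of the large subunit, by -1.54 ± 0.091, and RPUSD4, a pseudouridine synthase, by -1.33 ± 0.12. In U2-OS MRM2, another rRNA methyltransferase, changed by -1.27 ± 0.10, METTL15 by -1.16 ± 0.12 and the GTPase MTG2 by -1.11 ± 0.12. At 400 nM 13 of the 25 fell and 1 rose in SJSA-1, and 14 fell and 1 rose in U2-OS.

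Of 13 mitochondrial translation factors, 7 fell and 2 rose in SJSA-1 at 100 nM, and 7 fell and 3 rose in U2-OS. MTRFR, a release factor homologue that rescues stalled ribosomes, changed by -2.12 ± 0.085 in SJSA-1 and -2.02 ± 0.085 in U2-OS, deeper than any member at this dose. TACO1, an activator of COX1 translation, changed by -1.51 ± 0.13 and -0.83 ± 0.13. The elongation factor GFM1 rose by 0.78 ± 0.10 in U2-OS on the deposited scale, where after spike-in centring 0 of the 13 factors rose. Of 19 genes for charging mitochondrial tRNAs, 9 fell and 1 rose in SJSA-1, and 8 fell and 2 rose in U2-OS. The methionyl-tRNA synthetase MARS2 changed by -1.61 ± 0.11 and -0.90 ± 0.11, and the histidyl-tRNA synthetase HARS2 by -1.07 ± 0.089 and -1.23 ± 0.089.

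Of 22 genes for transcription of mitochondrial DNA and processing of its RNA, 13 fell and 4 rose in SJSA-1 at 100 nM, and 8 fell and 2 rose in U2-OS. FASTKD1 fell by 1.83 in SJSA-1 and fell in U2-OS too, and TEFM, the mitochondrial transcription elongation factor, changed by -1.44 ± 0.089 and -1.81 ± 0.089. TRMT10C, a subunit of mitochondrial RNase P, changed by -2.37 ± 0.11 in SJSA-1 and -3.35 ± 0.11 in U2-OS at 400 nM. After spike-in centring 0 genes of this list, of the tRNA-charging list or of the following list of regulators rose at 100 nM in either line. Among 9 nuclear regulators of such genes, 4 fell and 1 rose in SJSA-1 and 5 fell and 0 rose in U2-OS at 100 nM. NRF1, whose motif is searched above, changed by -1.28 ± 0.11 in SJSA-1, and PPRC1, a coactivator of the PGC-1 family, by -1.34 ± 0.11. The regulator that rose in SJSA-1 was MYC, a transcription factor that promotes growth, at 0.95 ± 0.10, which was 0.55 and not called after spike-in centring. In U2-OS MYC changed by -0.86 ± 0.10, and the difference between the lines was 1.81 ± 0.15 (limma, adjusted p = 3.82e-10), or 1.73 and still called after spike-in centring. DAP3, PTCD3, CHCHD1 and GADD45GIP1, mitochondrial ribosomal proteins under other symbols, split 2 fallen and 0 risen in SJSA-1 and 3 fallen and 0 risen in U2-OS.

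The subunits of the respiratory chain, whose mitochondrially encoded partners these ribosomes make, moved the other way on the deposited scale, and after spike-in centring 0 of them rose at 100 nM in either line. Of 81 nuclear-encoded subunits of oxidative phosphorylation, 38 rose and 1 fell in SJSA-1 at 100 nM, and 27 rose and 3 fell in U2-OS. Over all tested genes 24.4% rose and 25.1% fell in SJSA-1 at that dose, and 19.8% and 22.2% in U2-OS. NDUFA5 of complex I changed by 0.92 ± 0.10 in SJSA-1 and 0.44 ± 0.10 in U2-OS. The median subunit stood 0.38 above the median member in SJSA-1 and 0.31 above it in U2-OS. These distances were 0.35 and 0.27 after quantile normalization, and 0.32 and 0.26 with all probe sets of each gene averaged. Of 72 cytosolic ribosomal proteins, 12 rose and 4 fell in SJSA-1, where 0 rose and 4 fell after spike-in centring, and 0 rose and 4 fell in U2-OS. At 400 nM 64 oxidative phosphorylation subunits rose and 1 fell in SJSA-1, where after spike-in centring 0 rose and 64 fell, and 67 rose and 3 fell in U2-OS, where 3 rose and 1 fell. On the deposited scale 41.4% of all genes rose and 24.9% fell in SJSA-1 at this dose, and 48.4% and 25% in U2-OS. After that centring most of all genes also fell in SJSA-1, as given above.

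**Figure D4:**
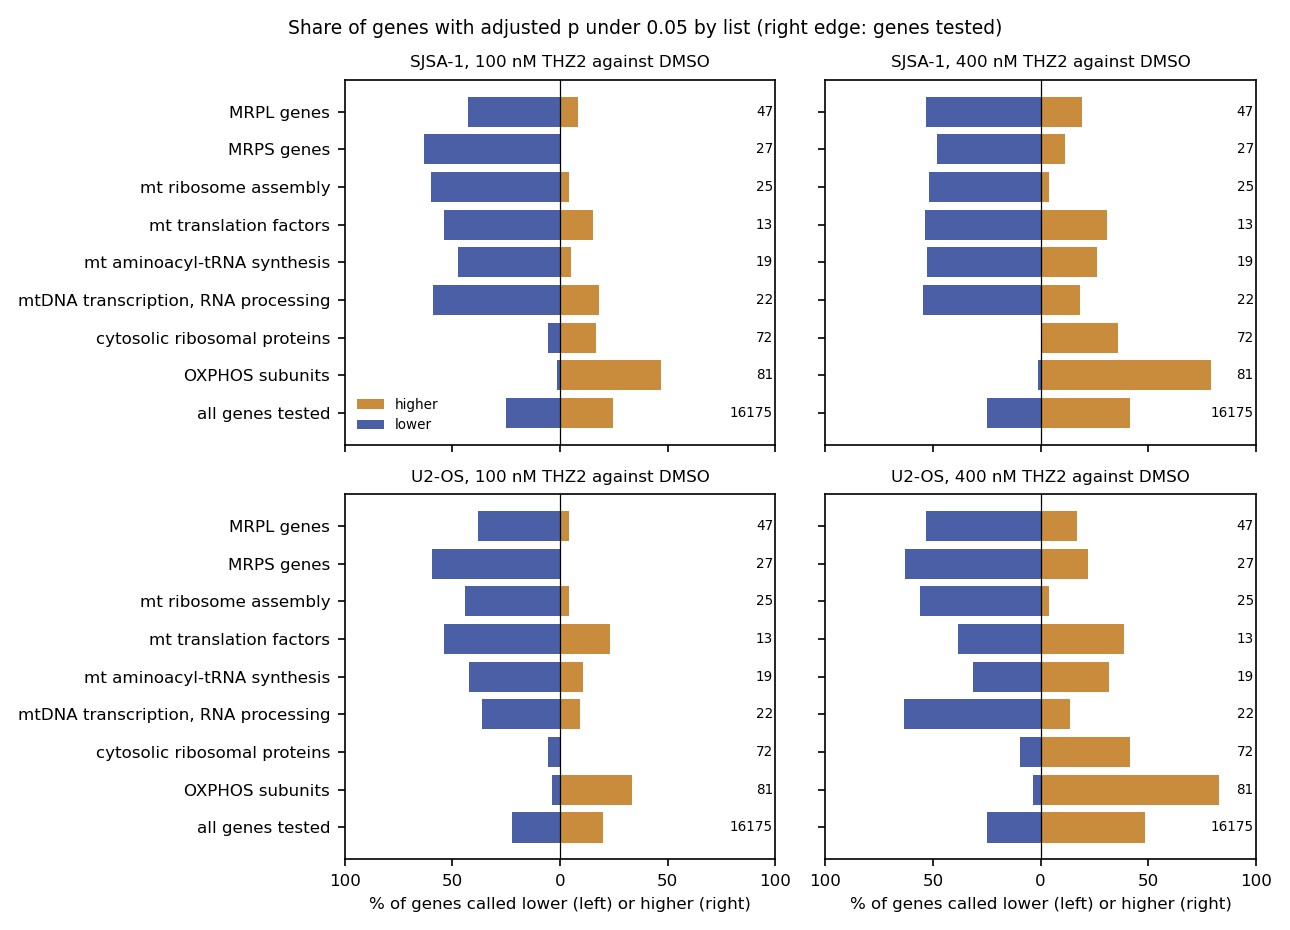
Percent of genes with adjusted p under 0.05 that were lower (left, blue) or higher (right, orange) than with DMSO at 100 and 400 nM in SJSA-1 and U2-OS, for the MRPL and MRPS genes, lists of genes that serve or neighbour the mitochondrial ribosome, and all 16175 tested genes; numbers at the right edge are genes tested. Bars of the mitochondrial ribosome and its assembly lie mostly to the left and those of oxidative phosphorylation to the right on the deposited scale, while after spike-in centring 0 oxidative phosphorylation subunits rose at 400 nM in SJSA-1. At 400 nM 41.4% of all genes in SJSA-1 and 48.4% in U2-OS were higher on the deposited scale.

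RefSeq windows of 300 bases around annotated starts were found for 67 of the 74 members. The YY1 motif was present for 37.3% of these members, against 7.97% of 27305 genes with a window. The ETS motif was present for 43.3% against 12.2%, the NRF1 motif for 13.4% against 6.98%, and the E-box for 13.4% against 8.77%. The 27305 genes are all those with a RefSeq window, and they include noncoding genes and genes not tested on the arrays. All members were tested, and no share was taken over the tested genes alone. Whether members differ from other tested genes in these motifs was therefore not tested. Among the 27 members with a window that fell in both lines at 100 nM, 48.1% held the YY1 motif, 37% the ETS motif, 18.5% the NRF1 motif and 18.5% the E-box. Among the 31 that fell in neither, the shares were 29%, 48.4%, 9.68% and 3.23%. These shares describe letters in the windows and say nothing of binding.

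Many members start close to a gene on the other strand, so that their windows overlap, and 23 members had such a neighbour. In 16 pairs both genes were tested. In SJSA-1 the member fell at 100 nM in 13 pairs, and the neighbour fell in 6 of these, rose in 1 on the deposited scale and was not called in 6. In U2-OS the member fell in 12, and the neighbour fell in 4, rose in 1 and was not called in 7. Over all tested genes 25.1% fell and 24.4% rose in SJSA-1 at this dose, and 22.2% and 19.8% in U2-OS. In the pair of MRPL46 and MRPS11 the neighbour is itself a member. Whether neighbours differ from other genes was not tested. MRPL46 and MRPS11, whose windows are printed above, share 181 bases of their 300-base windows and are transcribed away from each other. While MRPL46 fell by 1.56 in SJSA-1 at 100 nM, MRPS11 had 699, 792 and 776 at 100 nM, against 855, 955 and 1121 with DMSO, and fell by 0.36 ± 0.10. At 400 nM MRPS11 was at 0.00 ± 0.10 in SJSA-1 and -0.12 ± 0.10 in U2-OS, neither called, where MRPL46 was at -1.89 ± 0.11 and -1.10 ± 0.11. MRPL49 shares 286 bases with FAU, which encodes a cytosolic ribosomal protein and was at 0.03 and not called in SJSA-1 at 100 nM. MRPL50 shares 268 bases with ZNF189, which fell by 1.31 in the same comparison, while MRPL50 fell by 0.45. The pairs thus included some in which both genes fell and some in which the member alone did.

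**Figure D5:**
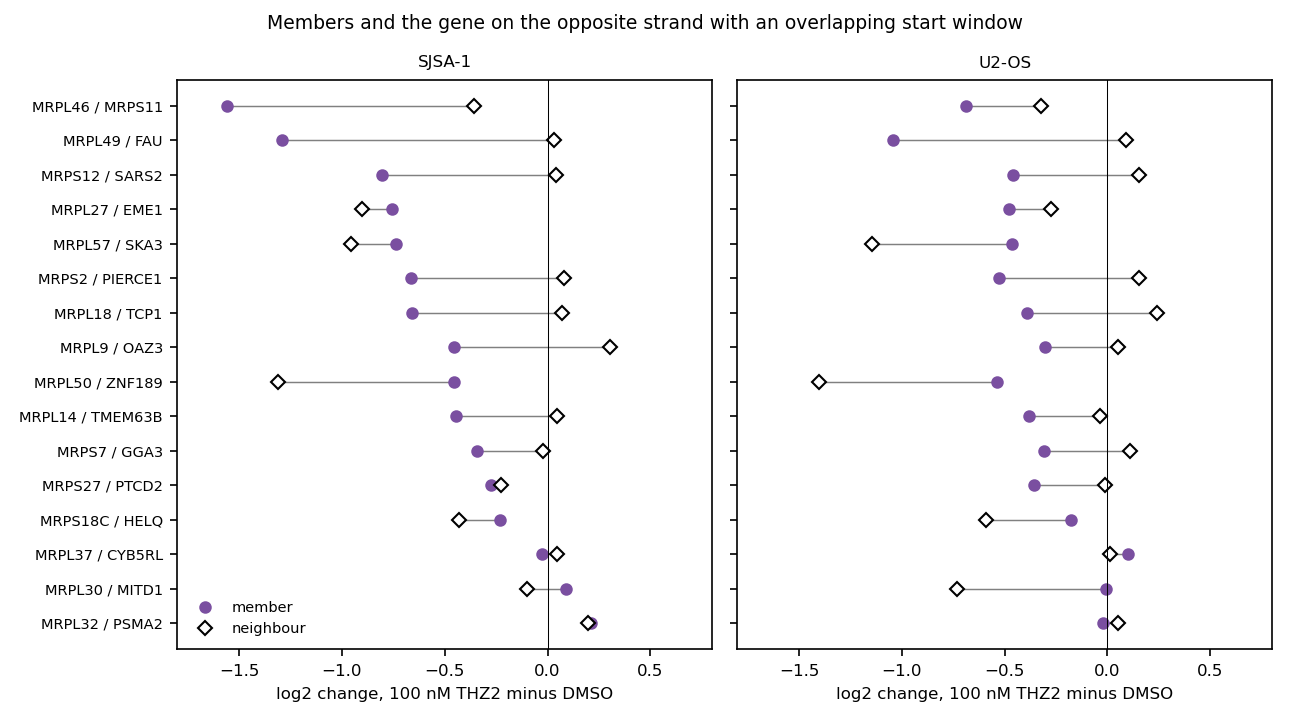
Log2 change of intensity + 16 at 100 nM THZ2 minus DMSO in SJSA-1 (left) and U2-OS (right) for 16 pairs of a member (filled) and the gene on the opposite strand whose start window overlaps its own (open). MRPL49 lies at -1.29 in SJSA-1 while its neighbour FAU lies at 0.03, and ZNF189 lies further down than its neighbour MRPL50.

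Gene length was set beside the changes. In SJSA-1 at 100 nM the 37 fallen members had a median length of 6568 bases in RefSeq and the other 37 members 13147. Across the 74 members Spearman's rho between length and change was 0.23, against -0.11 across 16162 genes with a length. In U2-OS the 34 fallen members had a median of 8411 bases and the other 40 a median of 10073, with a rho of 0.14 against -0.17. At 400 nM the medians were 8090 for fallen and 11699 for other members in SJSA-1, with a rho of 0.145 against -0.152. The order turned in U2-OS at 400 nM, with 11020 for fallen and 8060 for other members, and a rho of -0.072 against -0.011. These correlations are across genes, which share arrays and promoters, and are given as descriptions.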

How the data were processed

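The arrays were grouped by line and dose as the labels give them. Each probe set has 1 deposited intensity per array, which is linear and not logged. MAS5 and RMA are named in the submitters' processing notes, and which of them made these values is not given in the sources used here. The treatment protocol names TRIzol, whereas the extraction protocol names a kit and another tissue, so marker lists were added. The table has 49372 probe sets, of which 44988 name 1 gene in GEO's platform annotation, 1832 several and 2473 none, and 79 are controls. Within pairs of SJSA-1 arrays and of each U2-OS set some probe sets held identical values, and across sets next to none did, so 3 normalization sets were assumed. The SJSA-1 values were all whole hundredths on the log2 scale, and hardly any U2-OS values were. Such rounding can by itself give identical values. Whether the SJSA-1 arrays form 1 set therefore cannot be told from them.

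A gene was represented by its brightest 1-gene probe set. Genes whose highest group mean was under the 30th percentile of intensities, 12.73, were left out. Log2(intensity + 16) was fitted with limma 3.58.1 in R 4.3.3, with 8 group means and an intensity trend, and p-values were adjusted per comparison by the Benjamini-Hochberg method at 0.05. The script was tested on simulated data. An exact permutation test of 3 against 3 arrays cannot go below a two-sided p of 0.1, so the fit across genes was used. Alternatives were array-median, spike-in and quantile scaling, other filters and pseudocounts, the mean of probe sets, no trend, a replicate block, only the arrays compared and leaving out each array. The fit of each probe set by itself was added after seeing the data. Replicate numbers were not taken to pair the arrays and were not used in the model.

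Named members are up to 6 of the largest rises and of the largest falls per dose among those called whose THZ2 arrays all lay outside the DMSO range, up to 5 called each way per step and line difference, and a fixed set with known roles. Full name lists of shared patterns, and the probe sets that disagree, were chosen after their values were seen. The members and gene lists were chosen with earlier results of these data known. Sequences and lengths come from RefSeq tables of GRCh38.p14.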

Additional observations from a re-analysis of the deposited data

Results flagged for a closer look

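Each of the following differed between the lines in the effect of THZ2, by the limma test of that difference (effect in SJSA-1 minus effect in U2-OS, on the log2 scale, ± SE). At 100 nM the effect was lower in SJSA-1 for MRPL46 (-0.87 ± 0.15, adjusted p = 0.000146), MRPS30 (-0.63 ± 0.12, adjusted p = 0.000512), MRPS18A (-0.52 ± 0.15), MRPL12 (-0.47 ± 0.14) and MRPL15 (-0.47 ± 0.11). It was higher for MRPL1 (0.45 ± 0.14), MRPL48 (0.36 ± 0.10) and MRPL13 (0.29 ± 0.09). Of 74 members 8 were lower, against 9.74% of all genes, and 3 were higher, against 7.15%. With spike-in centring 0 members passed in either direction. MRPL12, MRPS18A, MRPL1 and MRPL13 lost the call when certain single arrays were left out, and MRPL48 lost it with its probe sets averaged. MRPL46 and MRPS30 have 1 probe set each, while MRPL15 has a second, dim one that moved the other way.

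At 400 nM the difference includes the separate normalization set of the U2-OS arrays, and the 2 cannot be told apart. It was higher in SJSA-1 for MRPL50 (1.36 ± 0.15, adjusted p = 6.25e-08), MRPL32 (0.94 ± 0.12), MRPS31 (0.87 ± 0.13), MRPL1 (0.83 ± 0.14) and MRPS28 (0.71 ± 0.10). It was lower for MRPL41 (-0.80 ± 0.15), MRPL46 (-0.80 ± 0.15), MRPL57 (-0.57 ± 0.12), MRPL10 (-0.52 ± 0.14) and MRPL2 (-0.45 ± 0.14). For MRPL57 the mean of its probe sets gave 0.028. Of its 4 probe sets, 3 were called in the opposite direction in SJSA-1 at 400 nM. With spike-in centring 1 member was higher and 13 were lower.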

How the results depend on the processing

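The counts of fallen members at 100 nM in both lines and at 400 nM in U2-OS stayed within 1.5 times of those reported under every alternative run, and the median member stayed below 0 at 100 and 400 nM in both lines. Its size moved, to -0.633 and -1.055 at 100 and 400 nM in SJSA-1 and -0.502 and -0.685 in U2-OS with arrays centred on the spike-ins, and to -0.142 in SJSA-1 at 100 nM and -0.2 in U2-OS at 400 nM with probe sets averaged. Rises, 25 nM and differences between the lines depended on the processing. With arrays centred on the poly-A spike-ins, 0 members rose in U2-OS at 100 or 400 nM, in SJSA-1 at 25, 100 or 400 nM, or in either SJSA-1 step, 0 fell in SJSA-1 at 25 nM, and 68 fell in SJSA-1 at 400 nM. On that scale 0 members differed between the lines in either direction at 100 nM, although the median member difference was -0.173, against -0.096 on the deposited scale. At 400 nM 1 was higher and 13 were lower in SJSA-1. The median member at 25 nM in U2-OS also turned to -0.006. These rises also turned: MRPL11 (-0.146) in U2-OS at 100 nM and MRPS16 (-0.027) at 400 nM; in SJSA-1, MRPL13 (-0.18) and MRPL32 (-0.187) at 100 nM, MRPL42 (-0.206), MRPS14 (-0.225), MRPL48 (-0.234), MRPS33 (-0.391), MRPL24 (-0.44), MRPL33 (-0.45) and MRPL11 (-0.678) at 400 nM, MRPL41 (-0.025) and MRPL13 (-0.09) between 25 and 100 nM, and MRPS6 (-0.069) between 100 and 400 nM. The cause of these shifts was not tested beyond the centring itself.

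Centring on array medians gave 7 rises in SJSA-1 at 100 nM, and 26 members higher and 4 lower in SJSA-1 than in U2-OS at 400 nM. Quantile normalization gave 5 rises in U2-OS at 100 nM, 6 in its step between 25 and 100 nM, and 27 higher and 3 lower for the line difference at 400 nM. Averaging all probe sets of each gene gave 4 rises in U2-OS and 7 in SJSA-1 at 100 nM, and 1 and 10 in their steps between 25 and 100 nM. It turned MRPS18C to 0.103 in SJSA-1 at 400 nM and the line difference of MRPL57 at 400 nM to 0.028. Fitting only the arrays compared gave 3 rises and 3 falls in U2-OS at 25 nM, 9 rises in U2-OS at 100 nM, and 6 in its step. In SJSA-1 it gave 0 rises and 1 fall at 25 nM, 2 rises at 100 nM, 7 at 400 nM, 7 rises and 4 falls between 100 and 400 nM, and 10 members higher for the line difference at 400 nM. Without the intensity trend 1 member rose in the U2-OS step. Replicate numbers were not taken to pair the arrays, since in no comparison made did all 3 same-number correlations exceed 0.1. In U2-OS 9 of 18 same-number correlations did (median 0.12), against 6 of 36 between different numbers (median -0.07), and all 3 between 100 and 400 nM did, so numbers may carry some pairing there. In SJSA-1 these were 8 of 18 and 14 of 36. With the replicate block 1 member rose in the U2-OS step, and the other counts stayed within 1.5 times of those reported. Neither other filters nor other pseudocounts moved a count by more than that.

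Leaving out 1 array gave 1 to 4 rises and 32 to 34 falls in U2-OS at 100 nM, and 12 to 14 rises and 41 to 43 falls at 400 nM. In SJSA-1 it gave 0 to 1 rise and 3 to 14 falls at 25 nM, 2 to 6 rises and 34 to 37 falls at 100 nM, and 8 to 17 rises and 34 to 40 falls at 400 nM. The steps gave 0 to 1 rise in U2-OS and, between 100 and 400 nM in SJSA-1, 8 to 27 rises and 6 to 15 falls. The line difference gave 0 to 1 lower at 25 nM, 1 to 5 higher and 5 to 14 lower at 100 nM, and 13 to 23 higher and 6 to 13 lower at 400 nM. The rises in U2-OS at 100 nM numbered 4 without its replicate 1 at that dose and 1 without its other arrays of DMSO or 100 nM. Without SJSA-1 DMSO replicate 1 the line difference gave 1 lower at 25 nM, 14 lower and 5 higher at 100 nM, and 13 lower at 400 nM. It gave 5 lower at 100 nM without DMSO replicate 3 or 100 nM replicate 1 of SJSA-1, and 1 higher without DMSO replicate 2 or 100 nM replicate 3. The number of arrays limits the precision throughout.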
